A study of Mus musculus with 14 samples.

Results

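The histone variant H2A.Z was mapped by chromatin immunoprecipitation and sequencing (ChIP-seq) in mouse small intestinal epithelium, and the regions described here had an H2A.Z peak at E12.5 and in both adult cell types but none at E14.5. Peaks of all 8 H2A.Z libraries were joined into regions wherever they overlapped or touched, and regions on chromosomes 1 to 19 and under 3000 bp wide were kept. Regions were chosen by their peak calls in all 8 libraries. A region counted when both E12.5 libraries, both libraries of adult Lgr5+ intestinal stem cells (ISC) and both libraries of adult enterocytes had a peak in it and neither E14.5 library had one. This held for 577 of the 43299 autosomal regions under 3000 bp (1.33%), out of 45028 regions in all. They are called E14.5-gap regions below. Since the calls chose them, their presence and absence are a description, as are all values of the same peaks, and no test was made of either.

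The groups were EpCAM+ epithelial cells of E12.5 embryos, the same of E14.5 embryos, adult Lgr5-EGFP-high ISC and enterocytes of adults. Each had 2 H2A.Z libraries, called biological duplicates by the submitters. All mice were of mixed C57BL/6 CD1 background, and the embryonic cells and the enterocytes were sorted as negative for CD31 (an endothelial marker) and CD45 (a blood cell marker). The adult cells came from male Lgr5EGFP-Cre-ERT mice of postnatal day 60. The ISC sort rests on a green fluorescent reporter at Lgr5, whereas the enterocyte gate rests on EpCAM, which other epithelial cells carry too. Whether the duplicates came from separate animals or pools was not stated. The 6 input samples entered only through the authors' peak calling. The labelled cell types were not checked against marker genes, because no gene annotation of the mm9 build, in which the peaks are given, was used here.

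H2A.Z replaces the core histone H2A in some nucleosomes. It is loaded by the SRCAP and p400 remodelling complexes and is found at the nucleosomes beside many gene starts and at enhancers, both at active genes and at genes kept poised. In the gut, the early embryonic epithelium is a tube of dividing progenitor cells that is later remodelled into villi. After birth, stem cells in the crypts renew it and give rise to the absorptive enterocytes of the villi.

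The 2 E14.5 libraries held the fewest sequenced tags and differed in list length. There were 30915480 tags and 17288 peaks in E14.5 replicate 1 and 27835048 tags and 6136 peaks in E14.5 replicate 2, against 31507399 to 41274126 tags and 14256 to 32131 peaks in the other libraries. The caller estimated a fragment size of 71 bp in E14.5 replicate 2 and of 67 bp in enterocyte replicate 1, near the tag length of 68 bp, and of 191 to 247 bp elsewhere. The weakest listed peaks had a −log10 q (the evidence against the input after adjustment within a list) of 1.00 to 1.06 over the 8 lists, which is weaker than the q limit of 0.05 that the file headers state. A region without a peak is one that did not reach the caller's threshold in that library, so H2A.Z there was not detectable at this depth and is not shown to be absent. The part of depth, fragment size and list length in the E14.5 gap was not tested.

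Among regions shared by the E12.5, ISC and enterocyte libraries, a gap at E14.5 was uncommon, and E14.5 replicate 1 decided it. All 6 libraries of these stages had a peak in 8959 regions, called shared regions below. Of these, 577 had no peak at E14.5, which is 6.44% with a 95% Wilson interval of 5.95 to 6.97%. Intervals of this kind hold counting error alone and treat nearby regions as independent, which they are not. E14.5 replicate 1 alone had a peak in 4619 (51.6%), both E14.5 libraries in 3751 (41.9%) and E14.5 replicate 2 alone in 12 (0.134%). By the same rule without E14.5 replicate 1 there would have been 5197 regions, and without E14.5 replicate 2 there would have been 589. The count was 1124 without enterocyte replicate 1 and 880 without E12.5 replicate 2, the libraries in which the E14.5-gap regions were most often weakest. With all lists shortened to equal length, 113 regions met the rule, a share of 6.37%, but only 1 of the 577 was among them. When a library counted only where it covered at least 50% of a region, 367 met it, and 35 of the 577 were among them.

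A gap in 1 stage alone was seen mainly at E14.5 and in enterocytes. Enterocytes lacked a peak in 326 of 4671 regions that the other 6 libraries had (6.98%, interval 6.28 to 7.75%), which is 0.753% of the 43299 autosomal regions. E12.5 lacked one in 2 of 3769 regions (0.0531%, and 0.00462% of the autosomal regions). ISC lacked one in 1 of 3753 (0.0266%, and 0.00231% of the autosomal regions). These denominators are smaller because they require a peak in E14.5 replicate 2. With that library set aside, single libraries can be compared among the remaining 7. E14.5 replicate 1 was then the only library without a peak in 589 of 8959 regions (6.57%, interval 6.08 to 7.11%). Enterocyte replicate 1, whose list is shorter, lacked 2269 of 10639 (21.3%, 20.6 to 22.1%), and enterocyte replicate 2, with a list of 20483 peaks, lacked 15 of 8385 (0.179%, 0.108 to 0.295%). E12.5 replicate 2 lacked 170 of 8540 (1.99%), E12.5 replicate 1 lacked 38 of 8408 (0.452%), and ISC replicates 1 and 2 lacked 2 and 5 regions.

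Most H2A.Z regions of E12.5 epithelium without a peak at E14.5 had no full set of adult peaks, so the E14.5-gap regions are a minority of them. There were 4515 regions called in both E12.5 libraries and missed in both of E14.5. All 4 adult libraries had a peak in 577 of these (12.8%, interval 11.8 to 13.8%). No adult library had one in 1977 (43.8%). Both ISC and no enterocyte library had a peak in 794 (17.6%), and both ISC and 1 enterocyte library in 559 (12.4%). Enterocyte peaks without any ISC peak were seen in 43 regions (0.952%). The share with a peak in all 4 adult libraries was 52.6% (51.6 to 53.7%) of 8778 regions that E14.5 replicate 1 alone kept, and 77.4% (76.2 to 78.6%) of 4846 regions that both E14.5 libraries kept.

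The E12.5 peaks of the E14.5-gap regions stood higher in their lists than those of regions that no adult library shared. Peak strength is given here as a percentile by −log10 p in the peak's own list, where 100 is the strongest peak. In E12.5 replicate 1 the median was 48.1 in the E14.5-gap regions and 27.8 in regions without an adult peak. In E12.5 replicate 2 these medians were 36.0 and 23.1. Regions of both ISC and no enterocyte library lay between, at 38.8 in E12.5 replicate 1 and 31.2 in E12.5 replicate 2. The median width was 1339 bp in E14.5-gap regions, 876.5 bp in regions of both ISC and no enterocyte library, and 561 bp in those without an adult peak. Regions that join peaks of more libraries are wider by construction.

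**Figure D1:**
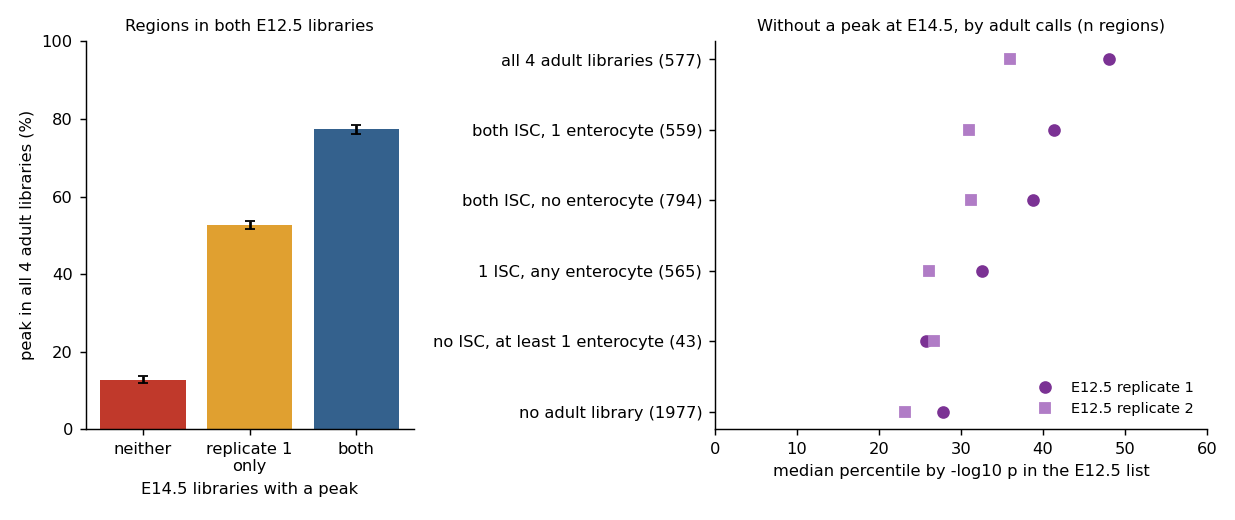
Left, share of regions of both E12.5 libraries with a peak in all 4 adult libraries (%), by the E14.5 libraries with a peak; bars start at 0 and error bars are 95% Wilson intervals. The share is 12.8% without an E14.5 peak and 77.4% where both E14.5 libraries had one. Right, median percentile by −log10 p in each E12.5 list of the 4515 regions without an E14.5 peak, by their adult calls; the E14.5-gap regions (all 4 adult libraries) are highest in both E12.5 lists.

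E14.5-gap regions carried weaker peaks than the other shared regions in each of the 6 libraries that had them. In E12.5 replicate 1 their median fold enrichment over the local background of the input was 3.43, against 4.16 in regions kept by E14.5 replicate 1 alone and 4.88 in regions kept by both E14.5 libraries. In E12.5 replicate 2 the 3 medians were 2.99, 3.46 and 4.03. In ISC they were 3.54, 4.21 and 4.77 in replicate 1 and 3.47, 4.16 and 4.78 in replicate 2. The order was the same in enterocytes, with 4.20, 4.35 and 4.48 in replicate 1 and 3.90, 4.36 and 4.71 in replicate 2. The fold is the authors' value for each peak and was compared here only within a list. Folds set side by side further below come from lists with different median folds, from 3.27 in ISC replicate 1 to 4.29 in enterocyte replicate 1.

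Ranked among the 8959 shared regions alone, the E14.5-gap regions lay lowest in the E12.5 libraries. Their median percentile was 11.3 and 10.6 in E12.5 replicates 1 and 2, 16.0 and 12.7 in ISC, and 29.1 and 22.5 in enterocytes. Regions kept by both E14.5 libraries had medians of 69.5 and 69.8 at E12.5, 65.6 and 67.8 in ISC, and 59.5 and 62.1 in enterocytes. The groups overlapped in every library, since single E14.5-gap regions reached a percentile of 91.7 to 99.0.

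**Figure D2:**
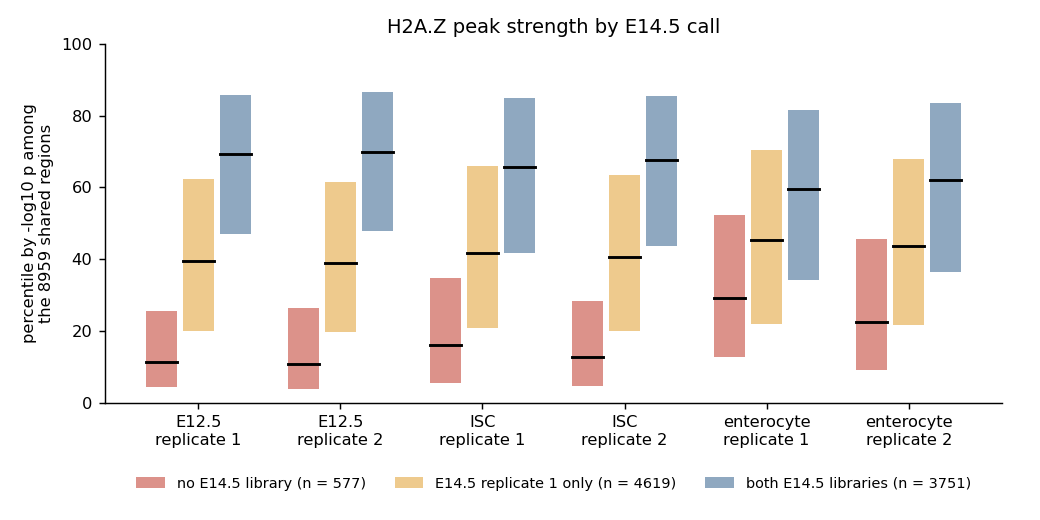
Percentile by −log10 p of the 8959 shared regions in each of the 6 libraries that have them (y axis, 0 to 100), for regions with no E14.5 peak, with a peak in E14.5 replicate 1 only, and with a peak in both E14.5 libraries. Boxes span the lower to the upper quartile and black lines are medians; the E14.5-gap regions are lowest in each library, with medians of 10.6 to 29.1.

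The share of shared regions without an E14.5 peak was higher among regions that were weak in the other libraries, and the contrast was wider by the E12.5 and ISC lists than by the enterocyte lists. In the weakest decile of shared regions by E12.5 replicate 1, 270 of 895 had no E14.5 peak (30.2%, interval 27.3 to 33.3%), and in the strongest decile 3 of 896 (0.335%, 0.114 to 0.980%). By E12.5 replicate 2 the shares were 31.4% and 0.670%. By ISC replicates 1 and 2 they were 24.2% and 27.6% in the weakest decile and 0.223% and 0.112% in the strongest. By enterocyte replicates 1 and 2 the weakest decile had 130 and 154 such regions of 895, and the strongest 19 and 16 of 896.

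**Figure D3:**
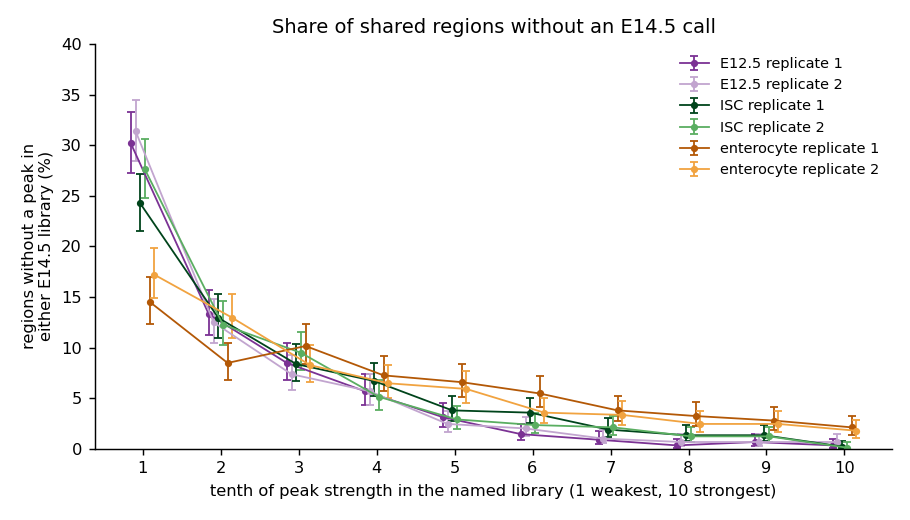
Share of shared regions without a peak in either E14.5 library (%, y axis) in deciles of peak strength by −log10 p, from the weakest (1) to the strongest (10), with 1 line for each library that ranks the regions and 95% Wilson intervals as bars. The share runs from 31.4% in the weakest decile of E12.5 replicate 2 to 0.112% in the strongest decile of ISC replicate 2.

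Peaks near the level at which a list ends were more common in E14.5-gap regions than in regions that E14.5 kept, but, except in enterocyte replicate 1, not more common than in the list as a whole. In enterocyte replicate 1, 224 of the 577 E14.5-gap regions (38.8%) had a −log10 q under 2, against 14.6% of the regions kept by both E14.5 libraries and 31.2% of all peaks of the list. In E12.5 replicate 2 it was 97 (16.8%), against 0.293% of the regions kept by both and 3772 of the 22177 peaks of the list. In E12.5 replicate 1 it was 24 (4.16%), against 12.4% of the list, and in enterocyte replicate 2 it was 13 (2.25%), against 2865 of the 20483 peaks of the list. In ISC replicates 1 and 2 it was 3 and 5 regions, against 12.7% and 16.5% of the lists. A −log10 q of at least 2 in all 6 libraries was reached by 290 E14.5-gap regions (50.3%), against 85.1% of the regions that both E14.5 libraries kept. Just on the other side of the rule, E14.5 replicate 1 called regions down to a −log10 q of 1.04. Of the 4619 regions it alone kept, 385 (8.34%) had one under 2, against 16.4% of its whole list. All 12 regions that E14.5 replicate 2 alone kept were under 2 there, as were 74.1% of the peaks of that list.

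Regions with a gap at E14.5 and regions with a gap in enterocytes were set side by side by where they ranked low. Each was set against the 3751 regions of all 8 libraries by its median percentile in a list. For the E14.5-gap regions the difference was -38.7 and -48.7 points in the E12.5 lists, -24.0 and -26.5 points in the ISC lists, and -29.1 and -23.4 points in the enterocyte lists. For regions with a gap in enterocytes it was -9.27 and -13.5 points in the E12.5 lists, -15.7 and -8.37 points in the E14.5 lists, and -44.9 and -35.0 points in the ISC lists. By this measure the difference was widest at E12.5 for the gap at E14.5 and in ISC for the gap in enterocytes, but the lists differ in length. Among the shared regions alone, the E14.5-gap regions differed from those kept by both E14.5 libraries by -58.1 and -59.2 points at E12.5, -49.6 and -55.1 points in ISC, and -30.4 and -39.6 points in enterocytes. The ratio of their median folds was 0.703 and 0.740 at E12.5 and 0.742 and 0.727 in ISC, so E12.5 and ISC are not set apart by the fold. With 2 libraries a stage, no exact test between stages can pass a threshold of 0.05, and none was made.

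**Figure D4:**
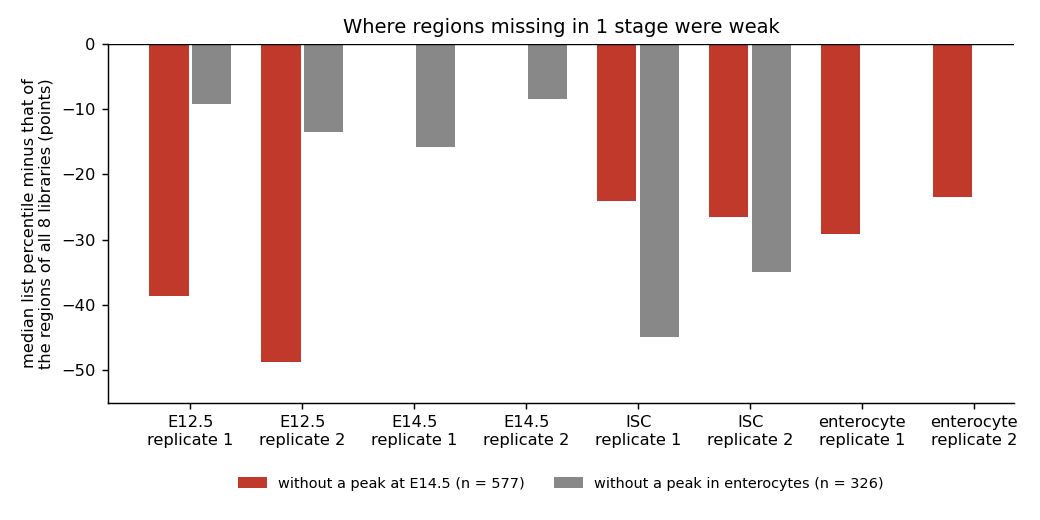
Median list percentile of regions without a peak in 1 stage minus that of the regions of all 8 libraries (points, y axis, from 0 downwards), for each library that had the regions. Red bars are the 577 regions without a peak at E14.5 and grey bars the 326 without a peak in enterocytes; the longest red bar is -48.7 points in E12.5 replicate 2 and the longest grey bar -44.9 points in ISC replicate 1.

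The E14.5-gap regions were not uniform across the stages in which they were called. By the mean percentile of a stage among the shared regions, 338 of the 577 (58.6%) stood highest in enterocytes, 21.7% at E12.5 and 114 (19.8%) in ISC. Among the regions kept by both E14.5 libraries, 25.9% stood highest in enterocytes, 42.0% at E12.5 and 32.1% in ISC. Of all shared regions, 35.5% stood highest in enterocytes. Enterocytes were the lowest stage in 16.6% of the E14.5-gap regions and in 42.0% of those kept by both. Highest is relative to the other stages only, since the median percentile of the E14.5-gap regions was still 29.1 and 22.5 in enterocytes. The enterocyte lists also set these regions less apart from those kept by both E14.5 libraries. The ratio of median folds was 0.938 and 0.830 there, against 0.703 to 0.742 in the E12.5 and ISC lists. The part of this in the stage order was not tested. Replicates ranked the 577 regions alike to differing degrees, with a Spearman coefficient of 0.781 in ISC, 0.565 in enterocytes and 0.545 at E12.5. Between E12.5 and enterocytes it was 0.0347 to 0.166, and between ISC and enterocytes 0.303 to 0.496. Over all 8959 shared regions these ranges were 0.257 to 0.378 and 0.391 to 0.656, and replicates gave 0.834 in ISC, 0.628 in enterocytes and 0.718 at E12.5. In both sets, values between E12.5 and enterocytes lay below those between ISC and enterocytes, and ISC replicates had the highest value. The replicates of E12.5 stood below those of enterocytes in the E14.5-gap regions, but above them over all shared regions. The E14.5-gap regions had the lower value throughout. These coefficients are over regions of the same libraries and describe them only, and the replicates of ISC and of enterocytes each share an input.

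Peaks of all 6 libraries had a common stretch in most E14.5-gap regions. Since regions join peaks that overlap or touch, some E12.5 peak meets an adult peak in each of them by construction. A stretch covered by all 6 libraries existed in 524 of the 577 (90.8%), against 99.4% of the regions that both E14.5 libraries kept. Its median length, with regions that lack it counted as 0, was 199 bp in E14.5-gap regions and 646 bp in those that both E14.5 libraries kept. In the median region all bases called at E12.5 were also called in ISC (100%) and 92.1% of them in enterocytes. In the other direction, 71.7% of the bases called in ISC were called at E12.5, against 84.5% in the regions kept by both E14.5 libraries. Less than 50% of the E12.5 bases were called in ISC in 12 regions. The centre of the called bases differed by a median of 108.5 bp between E12.5 replicate 1 and ISC replicate 1, against 82 bp in the regions kept by both E14.5 libraries. Between E12.5 replicate 1 and enterocyte replicate 2 it differed by 125.5 bp, against 86.5 bp in the regions kept by both E14.5 libraries. Between replicates of the E14.5-gap regions it differed by 77.5 bp at E12.5, 57 bp in ISC and 109 bp in enterocytes. Both differences between stages exceeded those between the replicates of the stages compared, but each rests on 1 library of a stage and was not tested.

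The called stretches were shorter than in regions kept at E14.5. The median covered length in E14.5-gap regions was 758 and 523 bp in E12.5 replicates 1 and 2, 1103 and 1053 bp in ISC, and 341 and 963 bp in enterocytes. In the regions kept by both E14.5 libraries it was 1284 and 1173 bp at E12.5, 1464 and 1538 bp in ISC, and 718 and 1302 bp in enterocytes. The E14.5-gap regions had the lower value in all 6 libraries. Against the median peak width of the whole list, they were lower in both E12.5 libraries and in enterocyte replicate 1 (798, 738 and 388 bp in the lists) and higher in both ISC libraries and in enterocyte replicate 2 (921, 821 and 835 bp in the lists). The regions themselves spanned 312 to 2996 bp, with quartiles of 984 and 1815 bp. The widest was chr16:44138317-44141312 with 2996 bp, and the narrowest chr8:73895158-73895469 with 312 bp. Just beyond the width limit, regions of the same calls spanned 3014 bp (chr19:53214907-53217920) and 3017 bp (chr17:27691908-27694924), and 38 such wider regions were left out.

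One E14.5-gap region stood apart from all others by the percentile in its weakest list. It lies at chr12:8320178-8320863 (mm9), spans 686 bp and had 1 of the strongest peaks in each of the 6 lists. Its fold enrichment was 5.89 and 5.29 in E12.5 replicates 1 and 2, 5.77 and 5.63 in ISC, and 5.23 and 5.92 in enterocytes. In percentiles of the lists this was 97.9 and 98.0 at E12.5, 96.8 and 96.9 in ISC, and 95.3 and 95.5 in enterocytes. Other E14.5-gap regions stood higher in every list but E12.5 replicate 2, up to 99.6 in enterocyte replicate 2. The region was singled out by its lowest percentile, so its 6 percentiles had to lie close together. The called bases numbered 387 to 646, and 387 bp were common to all 6 libraries. The nearest E14.5 peak lay 104594 bp away. Only 43 of the 8959 shared regions reached a percentile of 95.3 in all 6 lists, of which both E14.5 libraries called 40 and E14.5 replicate 1 alone called 2. The region on chromosome 12 was the remaining one.

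The other strong E14.5-gap regions had a lower percentile in their weakest list, which leaves more room for differences between libraries. Members were ordered by the percentile in their weakest list, and the next after chromosome 12 was chr9:120019168-120020441, with a lowest percentile of 71.1. For the E12.5 libraries the fold enrichment there was 5.06 and 3.45, for ISC 3.57 and 3.99, and for enterocytes 5.11 and 5.93. Next came chr19:5601570-5602552, with a fold of 4.35 and 4.14 at E12.5, 5.20 and 3.84 in ISC, and 4.43 and 4.33 in enterocytes. Among the 10 strongest by this order, 3 lay on chromosome 19 and 3 on chromosome 5, which held 6.07% and 7.28% of all E14.5-gap regions. With only 10 regions this is a description. In the 9 after the first, the fold ranged from 3.22 to 6.11 over regions and libraries.

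**Figure D5:**
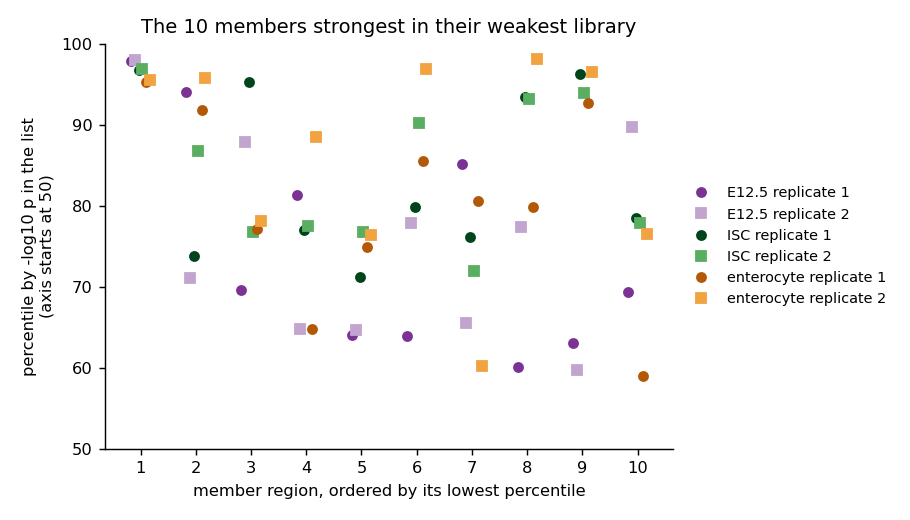
Percentile by −log10 p in its own list (y axis, from 50 to 100) of the 10 E14.5-gap regions with the highest value in their weakest library, for each of the 6 libraries that had them. The 6 points of the first region, on chromosome 12, lie between 95.3 and 98.0, and the next region has a lowest value of 71.1.

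The balance between stages differed from region to region. At chr10:6372277-6373817 the fold was 4.08 and 3.22 at E12.5, 5.73 and 5.23 in ISC, and 4.99 and 5.84 in enterocytes. Among the shared regions this placed it at a percentile of 27.5 and 31.9 at E12.5 and of 80.1 to 92.6 in the adult libraries. The region chr19:8966999-8968065 stood at 23.6 and 57.2 at E12.5, 81.3 and 78.0 in ISC, and 72.4 and 96.0 in enterocytes. The E12.5 replicates differ there, so its low place at E12.5 rests on replicate 1. Outside the 10 strongest, chr7:17612633-17613820, part of a run of neighbours given below, stood at 91.4 and 91.6 at E12.5, 36.1 and 28.7 in ISC, and 45.2 and 49.1 in enterocytes.

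At the other end of the order were regions that barely entered a list. The 3 lowest were chr18:35090588-35092392, chr10:120496202-120497272 and chr3:96473861-96474457, with a lowest list percentile of 0.212, 0.189 and 0.0729. The first 2 were at their lowest in E12.5 replicate 2 and the last in E12.5 replicate 1. In enterocyte replicate 2 the same 3 regions stood at 37.7, 46.4 and 60.4. Over all 577 regions the lowest of the 6 percentiles had a median of 21.6 and was under 10 in 144 regions. The library in which a region was weakest was enterocyte replicate 1 in 227 regions (39.3%), E12.5 replicate 2 in 220 (38.1%) and E12.5 replicate 1 in 80 (13.9%).

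The E14.5-gap regions were spread over all 19 autosomes at unequal shares. Of the shared regions, 11.3% on chromosome 19 had no E14.5 peak (35 of 311, interval 8.20 to 15.2%), and 9.76% on chromosome 17 (44 of 451, 7.35 to 12.8%). The lowest shares were 3.54% on chromosome 13 (14 of 395, 2.12 to 5.86%) and 4.14% on chromosome 9 (22 of 532, 2.75 to 6.18%). By number, chromosome 11 held most, with 61 regions (10.6%, beside 8.17% of all shared regions), followed by chromosome 7 with 52 (9.01%, beside 7.38%).

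They had on average more shared H2A.Z regions around them and lay not far from E14.5 peaks. The nearest E14.5 peak outside the region was a median of 17873 bp away, against 24307 bp for regions kept by E14.5 replicate 1 alone and 29422 bp for those kept by both. It lay within 10000 bp in 189 regions (32.8%), against 23.2% and 18.1%, and within 1000 bp in 1. Within 100 kb on either side they had a mean of 2.64 other shared regions, against 2.25 and 1.84. The medians were 2, against 2 and 1. Of these neighbours, 10.8% also lacked an E14.5 peak, against 8.84% of the neighbours of regions kept by E14.5 replicate 1 alone and 6.41% for those kept by both. At least 1 such neighbour was found for 132 of the 577 regions (22.9%), against 16.2% and 9.81%. The shares with such a neighbour also depend on how many neighbours a region has. Nearby regions are not independent, and these shares were not tested.

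Runs of neighbouring shared regions that all lacked an E14.5 peak were short. Of the E14.5-gap regions, 490 stood alone between regions with an E14.5 peak, 36 runs held 2 and 5 runs held 3. The tightest run of 3 spanned 10749 bp at chr19:8962411-8973159 and includes the region on chromosome 19 described above with a fold of 3.45 to 6.11. The next spanned 36553 bp at chr7:17612633-17649185 and 39139 bp at chr17:35029949-35069087. The others were chr7:28231665-28294062 with 62398 bp and chr2:22148808-22631098 with 482291 bp. In the run on chromosome 17 all 3 regions ranked low at E12.5, with percentiles among the shared regions of 1.44 to 9.74. They stood at 6.88 to 30.9 in ISC and at 50.6 to 53.0 in enterocyte replicate 1. In enterocyte replicate 2 they reached at most 30.4, so the enterocyte replicates differ there.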

How the data were processed

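H2A.Z ChIP-seq peak lists of 8 libraries were used. Per the file headers, the authors ran MACS 2.1.0.20140616 on every library against an input, calling broad peaks with 0.05 as the q limit and model building limited to folds between 10 and 30. Bowtie 1.1.2, SAMtools 1.2, bcl2fastq 1.8.4 and the mm9 build appear in the submitters' processing notes. Inputs were separate for the embryonic libraries; a common input served both ISC libraries, and another served both enterocyte libraries. The authors deposited for each peak its pileup, a coverage signal (not used for any result), its −log10 p-value and −log10 q-value, and its fold enrichment, a ratio to the local background. The short estimated fragment sizes could affect the number and width of the called peaks, which was not tested.

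Peaks were joined where they overlapped or touched. Where a library had several peaks in a region, the strongest value was taken. Percentiles are ranks by −log10 p within a list, or among shared regions. Named regions were the 10 with the highest percentile in their weakest library, the 3 lowest, the widest, the narrowest and the longest runs; the other regions of the text were chosen after their values were seen. The rule was tested on simulated data. Intervals are 95% Wilson intervals (scipy 1.17.1). The members, lists and alternatives were chosen with earlier results of these data known. No genome or annotation of mm9 was used here, so no gene names or sequences are given, and the gene lists drawn up for such an annotation were not used.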

Additional observations from a re-analysis of the deposited data

How the results depend on the processing

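The number of E14.5-gap regions (577) was 578 with peaks merged within 500 bp, 615 without the width limit and 589 with all chromosomes. With a −log10 q of at least 2 in each list it was 527, of which 290 of the 577 were among them, their share of shared regions was 7.61%, the mean over libraries of the median list percentile was 61.2, against 51.6, and the median width 1461 bp. Counting a library only where it covered at least 50% of a region gave 367 regions (15.3% of shared regions), which overlapped 35 of the 577, and lists of equal length gave 113 (6.37%), which overlapped 1, the region on chromosome 12. A −log10 q of at least 10 gave 0, since the highest in enterocyte replicate 1 was 7.92, and no share. Leaving out both libraries of short fragment size, an alternative chosen after seeing the data, gave 1150 regions (9.75%). Leaving out each library in turn gave 585 to 5197 regions, a share of 6.45 to 58.0%, a mean percentile of 47.2 to 68.6, a median width of 1233 to 1565 bp and a share on chromosome 11 of 9.08 to 10.5%. Among these, the count moved most without E14.5 replicate 1 (5197), enterocyte replicate 1 (1124) and E12.5 replicate 2 (880). The region on chromosome 12 was kept in 15 of 16 alternatives, and the others of the 10 strongest in 13 or 14. Most alternatives only drop a library or a limit. Leaving out 1 library kept 574 to 577 of the 577 regions, so such counts are high for nearly any member. The share at gene starts was not run, for want of an annotation of the build. No paired analysis was possible because the results come from no test.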

Other observations

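Regions with a gap at E12.5 alone or in ISC alone were few, and they are given here as values. Their counts require a peak in E14.5 replicate 2, the shortest list. The 2 regions with a peak in all libraries but those of E12.5 lay at chr17:88802402-88804907 and chr4:56234716-56235617. The region with a peak in all libraries but those of ISC lay at chr6:94679376-94680558.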
